A study of Rattus norvegicus with 36 samples.

Results

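These results concern 730 genomic regions of the rat hippocampus listed for the glucocorticoid receptor (GR) that overlapped regions listed for phosphorylated CREB (pCREB). GR peaks had been called in them mostly after corticosterone. A region was taken when it stood in the deposited GR list, overlapped a region of the deposited pCREB list by 1 bp or more, lay on chromosomes 1 to 20 or X, and carried a GR peak call in at most 1 of the 8 vehicle libraries. The 730 regions were 13.8% of the 5307 GR regions and 17.2% of the 4234 GR regions shared with pCREB on those chromosomes. They were thus chosen by measured values, namely the GR peak calls of the vehicle libraries, and the GR difference between corticosterone and vehicle is given below only as a description.

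Chromatin came from male Sprague-Dawley rats that were either trained or untrained and had received either corticosterone or vehicle, which gave 4 conditions (vehicle and corticosterone, each without and with training). The labels give no age, dose, time after treatment or training protocol. A library stands for pooled chromatin (4 hippocampi, 2 rats), and each pool was split between an antibody against GR and one against CREB phosphorylated at Ser133, so that every condition had 4 GR and 4 pCREB libraries, named A to D. The series addresses how glucocorticoids enhance the formation of memory.

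GR is a nuclear receptor that binds corticosterone, the main glucocorticoid of the rat, moves to the nucleus and attaches to DNA directly or through other factors. CREB is a factor bound to DNA at cAMP response elements, and its phosphorylation at Ser133 by kinases that respond to neuronal activity allows it to recruit coactivators. Both proteins are known for their part in hippocampal memory. In chromatin from whole hippocampi, binding in more cells and stronger binding per cell cannot be told apart.

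The GR libraries held 55254 to 173176 reads in their listed regions and the pCREB libraries 143219 to 562249. Vehicle GR libraries held 55254 to 118842 reads and corticosterone GR libraries 105690 to 173176. The 3 mitochondrial regions of the GR list took 7.66% to 23.0% of these reads. The conditions were labelled with lanes 5, 6, 7 and 8, so that lane and condition cannot be told apart. At the regions in which a library had peak calls, its own count column was the highest of the 16 for 15 of 16 GR libraries, the exception being untrained corticosterone B. The same held for 15 of 16 pCREB libraries, the exception being trained corticosterone A. Levels are given as CPM, read counts scaled to a common library total over the tested regions, after normalisation between libraries.

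Every one of the 730 regions overlapped exactly 1 pCREB region, and these 730 pCREB regions are called partners here. Of the GR regions, 471 (64.5%) lay wholly inside their partner, and in 555 (76.0%) the centres of both lay within 50 bp of each other. The median distance between centres was 24.5 bp, compared with 20 bp in the 3504 shared regions with calls in 2 or more vehicle libraries, which are called vehicle-bound below. Only 2 of the 730 overlapped their partner by less than 50% of the GR region.

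The regions had lower median widths and levels than the vehicle-bound ones for both proteins. Their median width was 341 bp (162 to 1017 bp), against 442 bp in the vehicle-bound regions and 287 bp in the 533 GR regions without pCREB that had at most 1 vehicle call. Median GR level per length was 253 CPM per kb, against 309 CPM per kb in the vehicle-bound and 297 CPM per kb in the GR regions without pCREB. The partners had a median width of 427 bp and a median pCREB level of 96.8 CPM per kb, against 517 bp and 114 CPM per kb for the partners of vehicle-bound regions. Over all 14722 pCREB regions the median was 101 CPM per kb. Few calls and weak signal go together by construction, so that these levels of GR are descriptions.

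The median partner carried pCREB peak calls in 10 of 16 libraries, and 504 partners (69.0%) were called in 9 or more, against 91.9% of the partners of vehicle-bound regions and 66.3% of all pCREB regions. Only 7 partners were called in all 16 pCREB libraries.

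The regions were spread over all the chromosomes considered. Chromosome 1 held the highest number, 63, and chromosome X held 2. The share of the shared regions that belonged to the 730 ranged from 12.5% on X (2 of 16) to 20.9% on chromosome 13 (36 of 172). The median distance to the nearest vehicle-bound shared region was 132.7 kb, and 62 of the 730 lay within 10 kb of one. Only 3 pairs of the 730 lay within 10 kb of each other, with a median gap of 1651 kb, so that they were mostly single sites. Coordinates below are those of the deposited list in rn6. Sequences and gene annotation of that build were not used here.

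No vehicle library had a GR call at 209 of the regions, and 521 had a call in 1 of them (247 in an untrained and 274 in a trained vehicle library). To stand in the GR list, a region had been called in 3 or more libraries of 1 condition. For 597 of the 730 that condition was trained corticosterone alone, for 81 it was untrained corticosterone alone, and 52 reached 3 calls in both. The number of corticosterone libraries with a call was 3 for 146 regions, 4 for 299, 5 for 203, 6 for 60, 7 for 21 and 8 for 1.

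Single libraries contributed very unequally to these calls. In trained corticosterone rats, 408, 667, 484 and 625 of the 730 regions were called in libraries A to D. In untrained corticosterone rats, the numbers were 238, 9, 459 and 274. In vehicle rats they were 1, 6, 189 and 51 without training and 110, 37, 92 and 35 with training. The trained corticosterone libraries lay above all vehicle libraries, while untrained corticosterone B, with 9 calls, lay among the vehicle libraries. That library had 513 calls in the whole GR list, and the vehicle libraries A and B of untrained rats had 196 and 666, against 1966 to 4849 in the other 13 libraries.

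The GR levels at the same regions did not separate in this way. Median GR level over the 593 tested regions was 109.7, 71.3, 95.4 and 93.8 CPM in untrained vehicle libraries A to D and 85.8, 83.9, 98.2 and 87.2 CPM in trained vehicle libraries. It was 94.2, 93.7, 104.5 and 87.2 CPM in untrained corticosterone libraries and 108.2, 99.5, 113.7 and 97.6 CPM in trained corticosterone libraries. Untrained vehicle A called 1 of the regions at a median of 109.7 CPM, while trained corticosterone B called 667 at a median of 99.5 CPM. These libraries had 79654 and 149254 reads in the list. Among untrained corticosterone libraries the order by all reads in the list was the other way. Library B called 9 regions on 120812 reads and C called 459 on 105690. Mitochondrial regions took 22.95% of these reads in B and 10.64% in C. In the regions studied here the order was not the other way, since B held 6331 reads and C 8489. The part of depth in the calls was not tested.

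**Figure D1:**
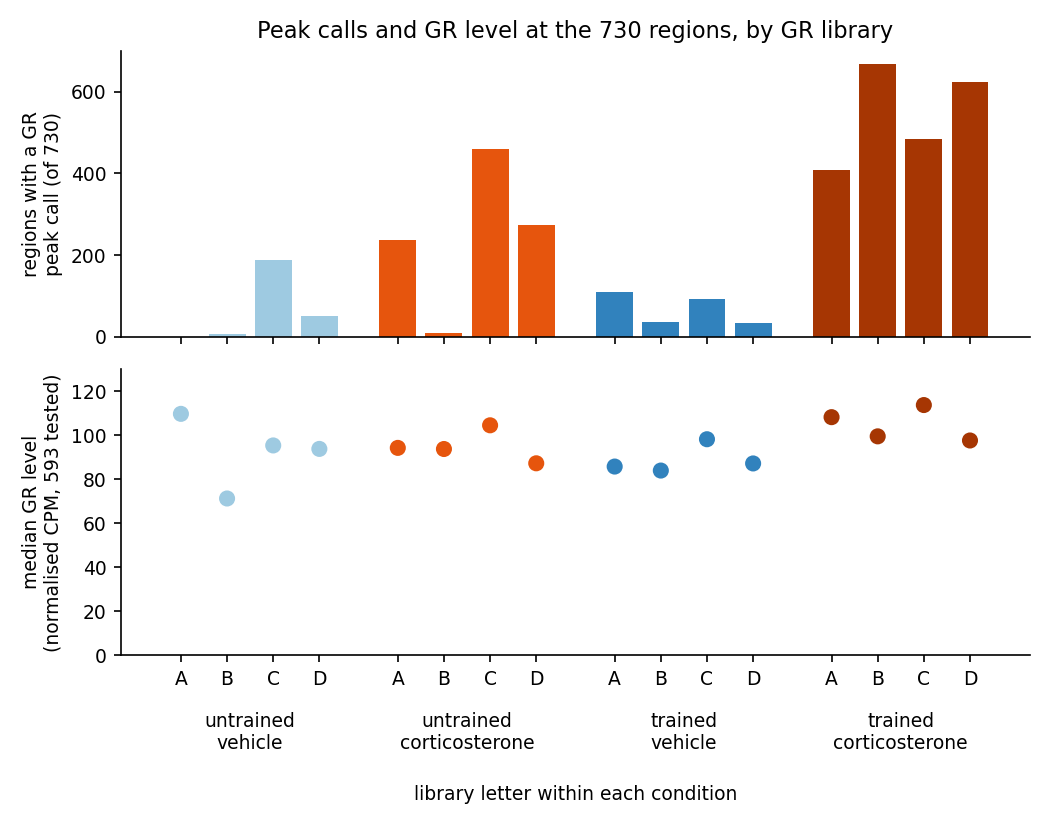
Number of the 730 regions with a GR peak call (upper panel, bars) and median GR level over the 593 tested regions in normalised CPM (lower panel, points), for the 16 GR libraries grouped by condition and named by letter. Calls ran from 1 to 667 per library, while median levels ran from 71.3 to 113.7 CPM, with vehicle libraries (71.3 to 109.7) and corticosterone libraries (87.2 to 113.7) overlapping.

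Of each library's reads in the listed GR regions, mitochondrial ones included, the share that fell in the 730 regions overlapped between treatments as well. It was 6.31% ± 1.03 (SD, n = 8) in vehicle libraries, from 4.63% to 7.63%, and 7.15% ± 0.92 (SD, n = 8) in corticosterone libraries, from 5.24% to 8.04%. By condition it was 6.18% ± 1.41 in untrained vehicle, 6.69% ± 1.15 in untrained corticosterone, 6.43% ± 0.66 in trained vehicle and 7.60% ± 0.32 in trained corticosterone libraries (SD, n = 4 each). The trained corticosterone libraries, at 7.28% to 8.04%, lay above the 4 trained vehicle libraries at 5.60% to 7.06%. In untrained rats the ranges overlapped, with 4.63% to 7.63% under vehicle and 5.24% to 8.03% under corticosterone. Without the mitochondrial reads, the trained groups overlapped too, at 7.88% to 9.48% under corticosterone and 6.17% to 8.26% under vehicle. The trained corticosterone libraries were also those whose calls had listed most of the regions.

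A call marked the stronger regions within a library. In trained corticosterone B, the called regions had a median of 106.1 CPM and the others 59.7 CPM. In untrained vehicle C, the vehicle library with the most calls in the regions, the medians were 143.0 and 79.5 CPM. The level of the regions that were called thus differed between libraries. Reads per region were few: the median region held 3 to 17 reads in a library, with the fewest in untrained vehicle B, where 79 of the 730 had no read.

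Of the 730 regions, 593 had enough reads for testing and 137 did not. The untested regions held a median of 110 GR reads over the 16 libraries, against 174 in the tested ones. The partners were deeper, and 725 of 730 were tested for pCREB.

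Between corticosterone and vehicle, averaged over training, 3 of the 593 regions were higher for GR by edgeR's quasi-likelihood test at an adjusted p under 0.05 and none was lower. Over all 4968 tested GR regions, 1.65% were called higher. DESeq2 called the same 3 regions. The median log2 fold change of GR was 0.10 in the 593 regions and -0.07 over all tested GR regions, and 384 (64.8%) had a positive sign, against 41.9% of all. The rule favours such values, and nothing is read from them. No region had all 8 corticosterone libraries above all 8 vehicle libraries, or all below, where 0.362% of tested GR regions were separated in either direction. Leaving out untrained vehicle B raised the number called from 3 to 9, all higher and including the 3. Leaving out untrained vehicle D, or the 3 libraries with few calls together, raised it to 5. The shares of all tested GR regions called in these alternatives are not given, so the rise cannot be tied to these regions. Within the 209 regions without a vehicle call, 1 passed.

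The description differed between the training states. In trained rats the median log2 fold change of GR between corticosterone and vehicle was 0.20, 428 of 593 (72.2%) were positive, and 1 region was called higher, where 0.121% of all tested GR regions were. In untrained rats the median was 0.0048, with 301 (50.8%) positive, and edgeR and DESeq2 called none, where 0.302% of all were called higher by edgeR. In untrained rats, 38 regions (6.41%) had an edgeR p under 0.05 before adjustment, where 10.3% of all tested GR regions did. The median in untrained rats ran from -0.02 without untrained corticosterone C to 0.11 without untrained corticosterone B, and it was -0.0069 without untrained vehicle B. Averaged over training, the median was 0.17 without untrained corticosterone B and 0.16 without untrained vehicle A. With mitochondrial and unplaced regions left out of the fit, it was 0.185, against 0.017 over all tested GR regions. The same alternative gave 0.11 in untrained rats, where the median over all moved from -0.06 to 0.03. In trained rats it gave 0.27, where the median over all moved from -0.03 to 0.04. Without untrained vehicle B 6 regions were called in untrained rats, and without untrained corticosterone C 1 was, again without the shares of all regions. The 1 call in trained rats was lost when 1 of 5 libraries was left out (A, C or D of trained vehicle, B or C of trained corticosterone). Regions listed through trained corticosterone alone had median log2 fold changes of 0.22 in trained and -0.07 in untrained rats, and those listed through untrained corticosterone alone had -0.02 and 0.36. The direction of each of these pairs is favoured by which libraries had to be called.

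The position of the threshold at 1 vehicle call can be read along the number of vehicle calls. Shared regions with 0 vehicle calls had a median GR level of 80.1 CPM in vehicle and 94.5 CPM with corticosterone, and a median log2 fold change of 0.21. Those with 1 call, just inside the threshold, had 94.6 and 98.0 CPM and 0.07. Those with 2 calls, just outside it, had 115.4 and 115.1 CPM and -0.05. At 3, 4, 5 and 6 calls the medians of the log2 fold change were -0.11, -0.18, -0.21 and -0.19. At 7 and 8 calls, with 120 and 34 regions, they were -0.09 and -0.22. The median was lower at each further call up to 5, and the difference across the threshold was no larger than that between 0 and 1 calls. GR regions without pCREB and with at most 1 vehicle call had a median of 0.71, and 60 of 398 (15.1%) were called higher.

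**Figure D2:**
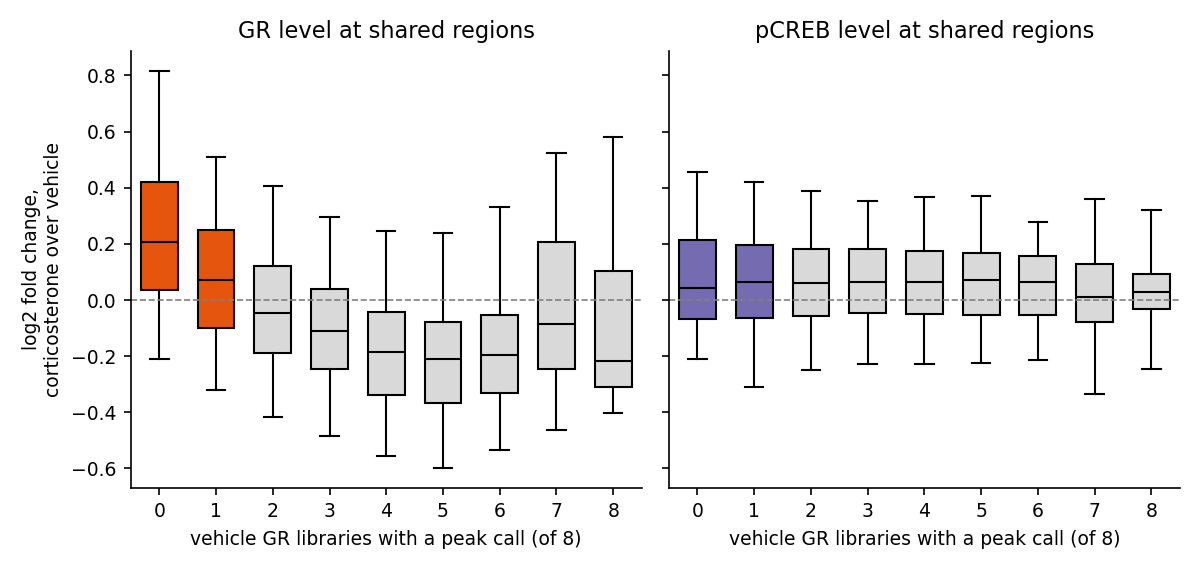
Log2 fold change between corticosterone and vehicle, averaged over training, of GR (left) and pCREB (right) at the shared regions, by the number of the 8 vehicle GR libraries with a peak call. Boxes show quartiles and median, whiskers the 5th and 95th percentiles, and coloured boxes the 730 regions (0 and 1 calls); GR medians run from 0.21 at 0 calls to -0.21 at 5 calls, with -0.09 at 7 and -0.22 at 8 calls, and pCREB medians lie between 0.01 and 0.07 throughout.

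The 3 regions that passed the GR test lay on chromosomes 19, 16 and 20. The rule favours higher GR under corticosterone. The p values and alternatives of these 3 regions are therefore descriptions from the same libraries and support nothing. At chr19:57346524-57346864, the 1 region called in all 8 corticosterone libraries, GR was 97.5, 118.7, 39.7 and 145.9 CPM in untrained vehicle libraries A to D and 51.5, 63.0, 24.5 and 43.6 CPM in trained vehicle libraries. In corticosterone libraries it was 257.0, 218.7, 139.4 and 181.8 CPM without training and 174.8, 192.3, 192.0 and 168.1 CPM with training. The highest vehicle library, untrained vehicle D, lay just above the lowest corticosterone library, and the vehicle libraries rested on 3 to 14 reads. GR was higher under corticosterone, with a log2 difference of 1.52 ± 0.25 (SE) and an adjusted p of 0.00114 by edgeR, and the call held in all 23 alternatives. This region was also the 1 called in trained rats.

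At chr16:71597173-71597621, vehicle libraries A to D held 121.9, 166.2, 63.6 and 125.0 CPM of GR without training and 94.3, 178.4, 90.0 and 43.6 CPM with training. Corticosterone libraries held 368.4, 260.4, 148.1 and 290.8 CPM without and 274.6, 218.9, 248.8 and 184.3 CPM with training. Untrained corticosterone C lay within the range of the vehicle libraries and the other 7 lay above it. The log2 difference of 1.22 ± 0.25 (SE) had an adjusted p of 0.00568 by edgeR, and the call held in all 23 alternatives.

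At chr20:29814118-29814417, which had no vehicle call, GR ranged from 31.8 to 118.7 CPM in vehicle libraries (median 58.9) and from 64.0 to 203.6 CPM in corticosterone libraries (median 131.0). The groups overlapped through trained corticosterone C, with 64.0 CPM, and untrained vehicle B, with 118.7 CPM from 5 reads. The log2 difference of 1.13 ± 0.27 (SE) had an adjusted p of 0.0271 by edgeR. It did not pass in 7 of 23 alternatives, each without 1 library: untrained vehicle A or C, untrained corticosterone D, trained vehicle C, or trained corticosterone A, B or D, with adjusted p up to 0.0844 by edgeR.

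The pCREB levels at these 3 sites were low and did not pass the test. At the partner of the chromosome 19 region, pCREB was 0.00 to 26.2 CPM in vehicle libraries (median 9.16) and 0.00 to 27.6 CPM in corticosterone libraries (median 17.2). The log2 fold change of 0.74 (SE 0.39) had an adjusted p of 0.840 by edgeR. At the chromosome 16 and 20 partners the log2 fold changes were 0.35 (SE 0.23) and 0.59 (SE 0.25), both with an adjusted p of 0.840 by edgeR. In each case the ranges of vehicle and corticosterone libraries overlapped.

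**Figure D3:**
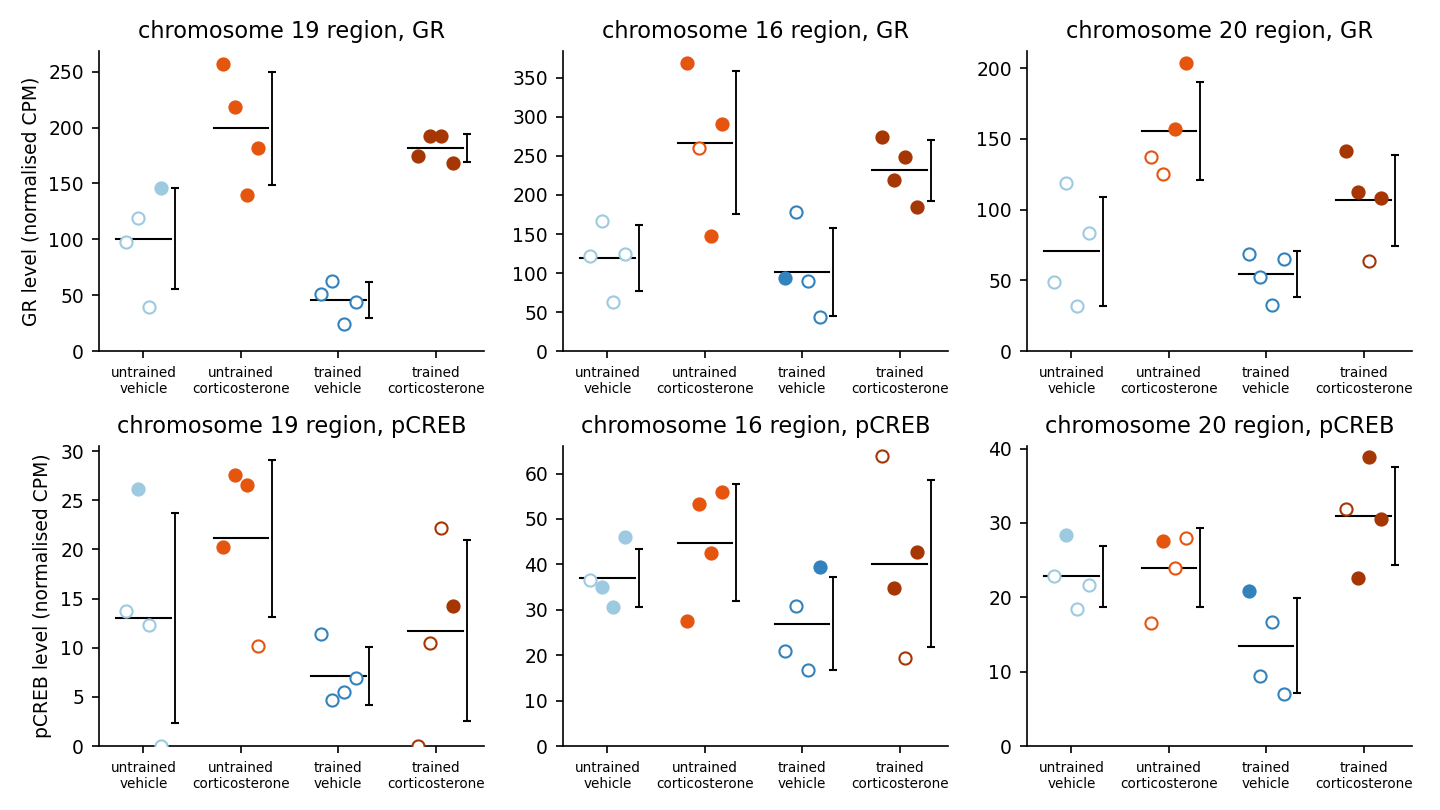
GR level (upper row) and pCREB level (lower row), in normalised CPM, at the 3 regions called higher for GR under corticosterone and at their partners, in 4 libraries per condition (points, letters A to D from left to right; filled where the library had a peak call; horizontal line, mean; bar, SD). At the chromosome 19 region GR was 139.4 CPM or more in all corticosterone libraries and 145.9 CPM or less in all vehicle libraries, while pCREB ranges overlapped at all 3 sites.

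Among regions without any vehicle call, those called in the most corticosterone libraries did not all differ in level. At chr1:40535845-40536107, with 7 calls, GR ranged from 42.0 to 332.5 CPM in vehicle libraries (median 69.3) and from 95.8 to 319.9 CPM in corticosterone libraries (median 146.5). The highest value of all was that of untrained vehicle B, which had no call there. At chr14:42909114-42909334, also with 7 calls, the medians were 37.3 and 80.8 CPM and the ranges 8.18 to 104.2 and 41.7 to 138.1 CPM. At chr11:65855528-65856075, with 7 calls, the medians were 107.5 and 183.8 CPM, from 36.6 to 177.1 and from 113.9 to 225.4 CPM. At chr4:174081547-174082048, called in 6 corticosterone libraries, the medians were 133.4 and 151.9 CPM, and at chr5:169947157-169947648, also with 6, they were 110.2 and 128.7 CPM. At chr5:156843516-156843997, with 6 as well, they were 98.9 and 132.0 CPM. All of these ranges overlapped between treatments, and none of these regions passed the GR test with all libraries. The chr1:40535845-40536107 region passed without untrained vehicle B (log2 fold change 1.24, adjusted p = 0.00767 by edgeR) and without the 3 libraries with few calls (1.23, adjusted p = 0.0345 by edgeR). The chr11:65855528-65856075 region passed without untrained vehicle D (1.09, adjusted p = 0.0218 by edgeR).

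The 5 regions with the highest GR level likewise showed calls without a separation of levels. At chr19:49314127-49314855, 7 corticosterone libraries and 1 vehicle library had calls. GR there was 162.9 to 403.2 CPM in vehicle libraries (median 180.0) and 145.8 to 261.7 CPM in corticosterone libraries (median 184.8). At chr1:263282957-263283659, with the same numbers of calls, the medians were 201.1 and 216.0 CPM, and untrained vehicle A held the highest level of the 16 libraries, 390.0 CPM, without a call. At chr10:86302228-86302939 the medians were 191.9 and 353.7 CPM. Its ranges were 158.5 to 475.0 and 191.4 to 443.5 CPM. The highest library, untrained vehicle B, rested on 20 reads. Without that library the region passed the test, with a log2 fold change of 0.73 and an adjusted p of 0.0264 by edgeR. At chr17:20023305-20024114 the medians were 205.9 and 206.1 CPM, and at chr1:87061294-87062310 they were 237.5 and 211.3 CPM.

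The pCREB libraries entered the rule only through the overlap with a listed pCREB region. Their chromatin came from the same pools as that of the GR libraries. Between corticosterone and vehicle, averaged over training, edgeR and DESeq2 called 0 of the 725 tested partners, where 0% of all 14553 tested pCREB regions were called by edgeR. At an unadjusted p under 0.05 edgeR gave 40 partners (5.52%), where 4.87% of all pCREB regions lay under it. The median log2 fold change of the partners was 0.06 and 455 (62.8%) were positive, against a median of -0.0029 and 49.6% over all pCREB regions. The partners of vehicle-bound regions had a median of 0.06 as well. Along the number of vehicle GR calls from 0 to 6 the median for pCREB lay between 0.04 and 0.07. For 0 partners, 8 libraries of one treatment lay apart from 8 of the other, where 0.00687% of all pCREB regions did.

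Within each training state the pCREB comparison gave the same count. In untrained rats edgeR and DESeq2 called 0 partners (0% of all pCREB regions by edgeR), 22 (3.03%) had an unadjusted p under 0.05 by edgeR where 2.69% of all did, and the median log2 fold change was 0.02, against -0.02 over all. In trained rats both tools called 0 (0% of all by edgeR), 32 (4.41%) had an unadjusted p under 0.05 where 5.94% of all did, and the median was 0.12, against -0.0027 over all. These medians depended on single libraries. Without trained vehicle B, the median in trained rats was 0.04 (-0.00091 over all pCREB regions), and it was also lower without trained vehicle A (0.06) or trained corticosterone B (0.06) or C (0.07). Averaged over training it was 0.04 without trained vehicle B. In untrained rats it was -0.02 without untrained vehicle B and 0.06 without untrained vehicle C.

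The number of pCREB calls also differed between libraries. Partners were called 57, 420, 568 and 299 times in untrained vehicle libraries A to D, 589, 633, 580 and 473 times in untrained corticosterone, 441, 309, 532 and 617 times in trained vehicle and 27, 690, 474 and 562 times in trained corticosterone libraries. Trained corticosterone A and untrained vehicle A had the fewest calls, with 143219 and 226220 reads in the list, against 323554 to 562249 in the others. Median pCREB level at the partners was 39.9 and 45.7 CPM in these libraries and 35.5 to 47.2 CPM in the others. Over treatments it averaged 41.7 ± 4.30 CPM under vehicle and 43.3 ± 3.41 CPM under corticosterone (SD, n = 8 libraries each), with overlapping ranges of 35.5 to 47.2 and 38.6 to 47.1 CPM.

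**Figure D4:**
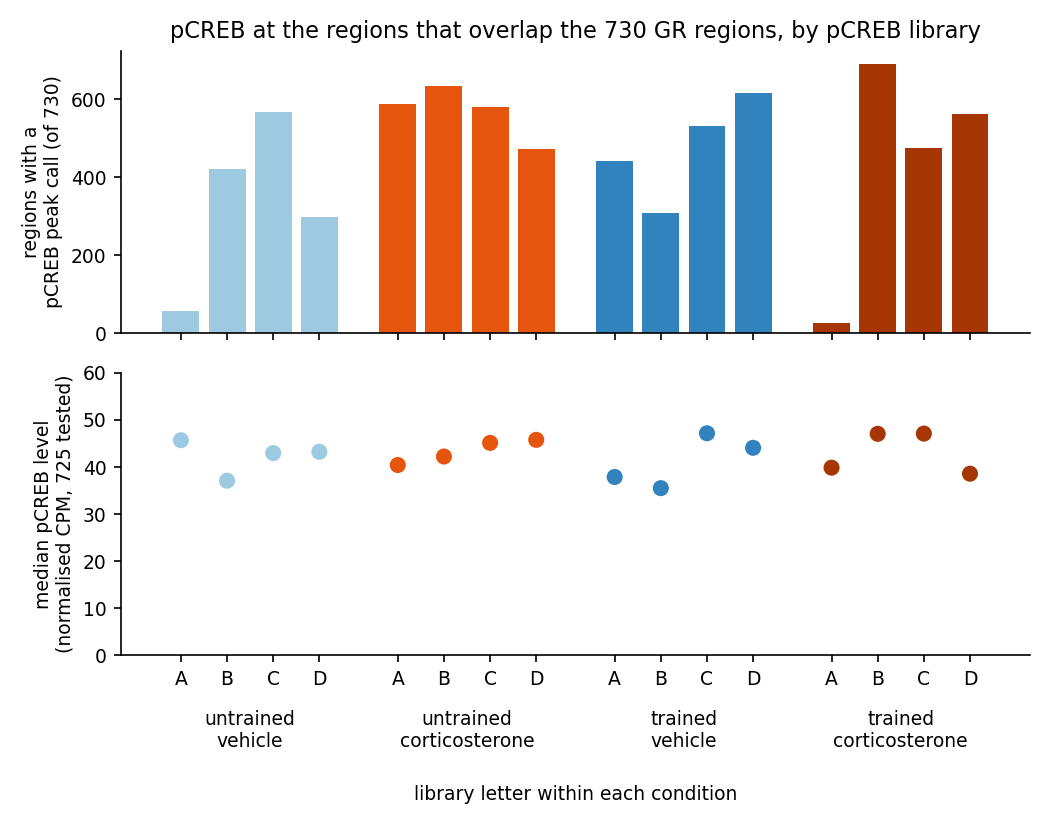
Number of the 730 partners with a pCREB peak call (upper panel, bars) and median pCREB level over the 725 tested partners in normalised CPM (lower panel, points), for the 16 pCREB libraries grouped by condition and named by letter. Calls ran from 27 to 690 and median levels from 35.5 to 47.2 CPM, with vehicle and corticosterone libraries overlapping in both.

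The partners with the smallest p for corticosterone had higher levels in most corticosterone libraries but did not pass the test after adjustment. At chr4:71120929-71121446, pCREB was 13.7, 17.5, 36.8 and 29.7 CPM in untrained vehicle libraries A to D and 32.2, 30.8, 33.3 and 16.2 CPM in trained vehicle libraries. It was 31.2, 42.2, 69.0 and 58.5 CPM in untrained corticosterone and 79.7, 66.2, 47.1 and 42.6 CPM in trained corticosterone libraries. Untrained corticosterone A lay within the range of the vehicle libraries and the other 7 corticosterone libraries lay above it. The log2 fold change of 0.95 (SE 0.23) had an adjusted p of 0.840 by edgeR. GR at the same site, chr4:71121090-71121403, had a log2 fold change of 0.13, with 23.8 to 104.9 CPM in vehicle and 17.1 to 156.2 CPM in corticosterone libraries.

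At chr13:69092906-69093414, pCREB ranged from 35.5 to 55.5 CPM in vehicle libraries (median 42.3) and from 54.8 to 95.7 CPM in corticosterone libraries (median 67.2). The groups overlapped by the lowest corticosterone library, trained D, and the highest vehicle library, trained C. The log2 fold change of 0.64 (SE 0.18) had an adjusted p of 0.840 by edgeR. For GR at this site the log2 fold change of 0.52 gave an adjusted p of 0.286 by edgeR. At chr9:117758471-117758900 the medians of pCREB were 31.5 and 48.2 CPM, with overlapping ranges of 18.9 to 37.8 and 31.2 to 66.5 CPM.

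The partners with the highest pCREB level per length had small fold changes with treatment. At chr2:199420010-199420486, called in all 16 pCREB libraries at 319 CPM per kb, pCREB was 123.4 to 185.5 CPM in vehicle libraries (median 153.6) and 109.8 to 207.7 CPM in corticosterone libraries (median 147.4). The log2 fold changes of this partner and of those at chr17:89432863-89433071, chr16:23668102-23668491, chr6:11079384-11080738 and chr4:121583924-121584220 lay between -0.16 and 0.03, with adjusted p from 0.895 to 0.989 by edgeR.

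Training was compared over the same GR libraries. Averaged over treatments, edgeR and DESeq2 called 0 of the 593 regions (0% of all tested GR regions by edgeR). By edgeR, 22 (3.71%) had an unadjusted p under 0.05, where 3.58% of all did, and the median log2 fold change was 0.0079. In vehicle rats both tools called 0 (0% of all by edgeR), 26 (4.38%) had an unadjusted p under 0.05 where 3.06% of all did, and the median was -0.09, against -0.02 over all regions. With scaling by total counts, that median turned to 0.0077, against 0.09 over all regions. Without untrained vehicle A it was 0.016, against 0.00060 over all regions, and it lay between -0.06 and -0.05 without untrained corticosterone B or trained vehicle A or B. Averaged over treatments, the median ranged from 0.0016 to 0.07 when leaving out 1 library, the highest value being that without untrained vehicle A.

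In corticosterone rats both tools called 0 for training (0% of all by edgeR), 20 regions (3.37%) had a p under 0.05 before adjustment where 3.7% of all did, and the median was 0.10. For the interaction of training and corticosterone both tools called 0 (0% of all by edgeR), 34 (5.73%) had an unadjusted p under 0.05 where 3.7% of all did, and the median was 0.16. Leaving out untrained corticosterone C moved the median in corticosterone rats to 0.18, and leaving out untrained vehicle A moved that of the interaction to 0.06. Most of the 730 were listed through calls in trained corticosterone libraries, so that positive medians in these comparisons are favoured by the choice of regions and support nothing. For pCREB at the partners both tools called 0 for training (0% of all by edgeR), with 27 (3.72%) at an unadjusted p under 0.05 where 2.87% of all were and a median of -0.0059, which ranged from -0.03 without trained vehicle C to 0.02 without trained corticosterone D. Its interaction also gave 0 (0% of all by edgeR), with 22 (3.03%) at an unadjusted p under 0.05 where 3.3% of all were and a median of 0.08, which ranged from 0.0069 without trained vehicle B to 0.13 without untrained vehicle B.

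The region with the smallest p for training was chr13:69493558-69493863, which had no vehicle call and calls in all 4 trained corticosterone libraries. GR there was 60.9, 71.2, 71.5 and 41.7 CPM in untrained vehicle libraries A to D and 42.8, 31.2, 26.1 and 14.5 CPM in untrained corticosterone libraries. It was 85.8, 94.4, 90.0 and 87.2 CPM in trained vehicle and 158.1, 86.2, 120.9 and 86.8 CPM in trained corticosterone libraries. All 8 trained libraries lay above all 8 untrained libraries, on 8 to 19 and 2 to 9 reads. This was the 1 such region among the 593, where 0.0403% of all tested GR regions were separated by training. It was called only in the 4 trained corticosterone libraries and was listed through them. Its higher level there is therefore favoured by the choice of regions and supports nothing. The log2 fold change was 1.25 (SE 0.30) and did not pass adjustment (adjusted p = 0.674 by edgeR, 0.391 to 0.999 over the alternatives). At its partner pCREB had a log2 fold change of 0.39 for training (SE 0.26, adjusted p = 1.00 by edgeR), and over the 16 pools GR and pCREB deviated from their condition means with r = -0.62.

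At chr11:79710601-79710854, GR and pCREB both had their lowest condition mean in untrained corticosterone libraries. GR was 158.5, 47.5, 63.6 and 93.8 CPM in untrained vehicle libraries and 17.1, 10.4, 52.3 and 43.6 CPM in untrained corticosterone libraries. It was 77.2, 31.5, 81.8 and 87.2 CPM in trained vehicle and 99.9, 106.1, 120.9 and 130.1 CPM in trained corticosterone libraries. All 4 trained corticosterone libraries lay above all 4 untrained corticosterone libraries, with a log2 fold change for training under corticosterone of 1.81 (SE 0.45, adjusted p = 0.777 by edgeR). The 4 trained ones were the only libraries with a GR call there. The listing thus favours this direction, and that of the GR interaction given below.

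At its partner, chr11:79710582-79710944, pCREB was 41.1, 34.9, 61.4 and 62.2 CPM in untrained vehicle libraries and 22.1, 33.1, 31.9 and 15.3 CPM in untrained corticosterone libraries. It was 47.4, 14.2, 47.2 and 48.7 CPM in trained vehicle and 31.9, 66.2, 74.8 and 58.9 CPM in trained corticosterone libraries. The untrained vehicle libraries all lay above the untrained corticosterone libraries, and of the trained corticosterone libraries A, which was the shallowest, fell among the latter. The interaction was 1.61 for pCREB (SE 0.45, adjusted p = 0.999 by edgeR) and 2.21 for GR (SE 0.64, adjusted p = 1.00 by edgeR). Neither passed the test.

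**Figure D5:**
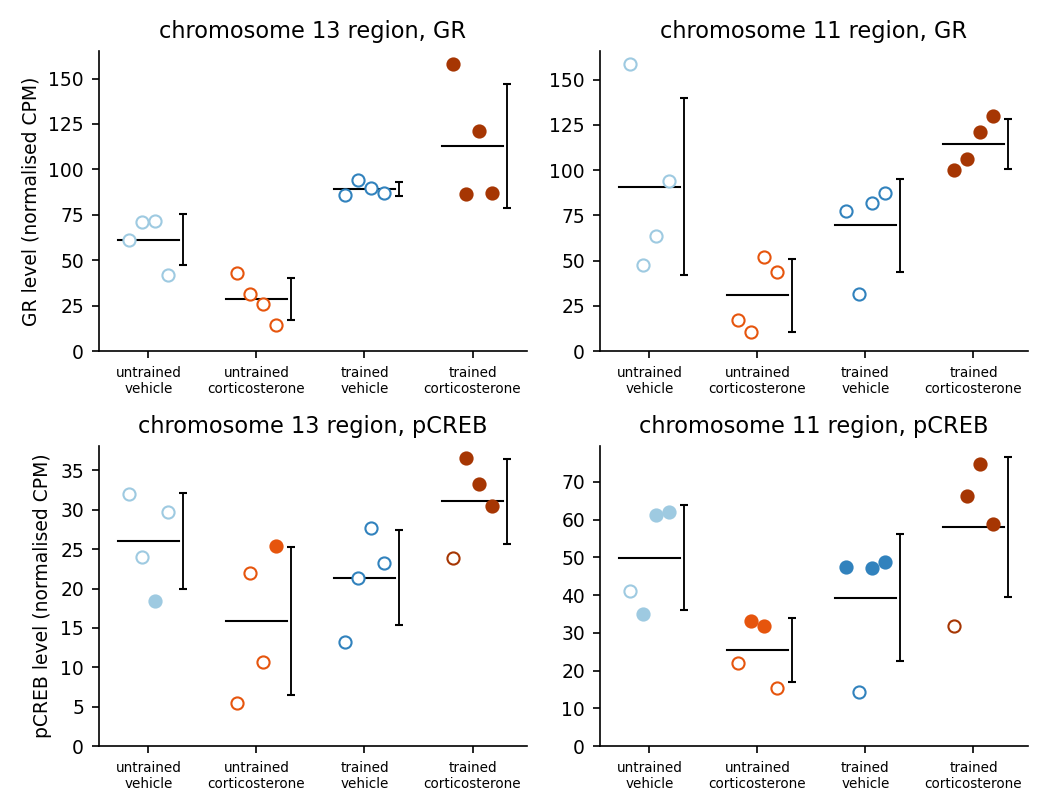
GR level (upper row) and pCREB level (lower row), in normalised CPM, at the 2 regions with the smallest p for training under corticosterone and at their partners, in 4 libraries per condition (points, letters A to D from left to right; filled where the library had a peak call; horizontal line, mean; bar, SD). At the chromosome 13 region all trained libraries (85.8 CPM or more) lay above all untrained ones (71.5 CPM or less) for GR, and at the chromosome 11 region GR and pCREB means were lowest in untrained corticosterone libraries. Both GR regions were listed through calls in trained corticosterone libraries alone, which favours higher GR levels there.

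Other regions named for training had differences of opposite sign. At chr1:220242989-220243251, GR under vehicle was 24.4, 47.5, 39.7 and 10.4 CPM without training and 94.3, 146.9, 65.5 and 76.3 CPM with training. All 4 trained libraries lay above the untrained ones, which rested on 1 to 5 reads, and the log2 fold change of 1.67 (SE 0.50) had an adjusted p of 0.998 by edgeR. At chr1:255291547-255292090, GR under vehicle was 170.6, 285.0, 95.3 and 156.3 CPM without and 85.8, 73.5, 73.6 and 87.2 CPM with training, with a log2 fold change of -1.01 (SE 0.35, adjusted p = 0.998 by edgeR). All 4 untrained libraries lay above the trained ones there. Neither difference passed adjustment over all regions.

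The remaining regions with the smallest p of a comparison also failed adjustment, and their log2 fold changes are given as values. For GR and training averaged over treatments, chr9:1710902-1711256 had -0.78 (SE 0.25). For GR and training in vehicle rats, chr8:54387419-54387823 had -0.96 (SE 0.34). For GR and training in corticosterone rats, chr13:106728083-106728634 had 1.01 (SE 0.34), and its interaction was 1.60 (SE 0.48). The GR interaction at chr2:216866405-216866755 was 1.96 (SE 0.52). All 4 of these regions had 1 vehicle call. The chr13:106728083-106728634 and chr2:216866405-216866755 regions were listed through trained corticosterone calls, which favours positive values in these comparisons.

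For pCREB and corticosterone in untrained rats, 2 partners had lower levels: chr11:61328697-61329134 with -0.93 (SE 0.32) and chr4:111181489-111181833 with -0.98 (SE 0.34). In trained rats, chr18:70411314-70411534 had 1.28 (SE 0.35) and chr6:7971480-7971763 had 1.07 (SE 0.34). For pCREB and training averaged over treatments, chr2:170945913-170946258 had 0.85 (SE 0.27), chr6:111732812-111733361 had 0.51 (SE 0.18), and the partner at chr2:216866403-216866768 had -0.79 (SE 0.28). The pCREB interaction was 1.52 (SE 0.49) at chr18:70411314-70411534 and -1.49 (SE 0.50) at chr14:93260792-93261040. At the GR regions of the chromosome 6 partner at 7971480 and of the chromosome 2 partner at 170945913, GR had too few reads for testing.

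Across the 590 regions tested for both proteins, the level of GR was compared with that of pCREB. Spearman's rho between GR and pCREB level per length was 0.53. Between the log2 fold changes for corticosterone it was -0.06, for training 0.11 and for the interaction 0.19. These are correlations across regions, which share the same libraries and pools, and are given as descriptions. Within conditions, over the 16 pools that were split between the antibodies, the deviations of GR and pCREB at a region had a median correlation of 0.09 (quartiles -0.09 and 0.28), with 372 (63.1%) positive. In 3448 vehicle-bound regions the median was 0.14, with 66.7% positive.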

How the data were processed

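The members and every list, test and alternative were chosen with earlier results of these data known. With tool settings not given in the sources used here, rn6 is named per the submitters' processing notes as genome build, beside the tools HTSeq 0.6.1-1, bedtools 2.26.0, MACS2 2.1.1.20160309 and BWA 0.7.10. The authors deposited unnormalised read counts, 1 per region and library, for GR and pCREB lists; per the file headers, the 16 count columns carry condition number and letter, and hold GR libraries in GR rows and pCREB libraries in pCREB rows. Regions were merged from peaks called per library, as the call names beside each region show.

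Each antibody was fitted in edgeR 4.0.16 under R 4.3.3 (robust quasi-likelihood fit, TMM, filterByExpr by condition, 4 groups, no covariate) over all listed regions, with Benjamini-Hochberg adjustment and a threshold of 0.05. CPM and fold changes come from this fit. Alternatives were DESeq2 1.42.0, other scalings, no filter, a replicate block, other call limits, leaving out mitochondrial and unplaced regions, and leaving out libraries. Replicates are separate pools, as the labels' protocols describe them; all 24 pairs per antibody within conditions differed by more than sampling noise (lowest chi-square per degree of freedom 1.79 for GR, 1.30 for pCREB).

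Named regions were the 6 without vehicle call and with the most corticosterone calls, those past the GR corticosterone test, the 3 with the smallest p of each other comparison, and the 5 highest for GR level and for pCREB level per kb, among tested regions. The fixed gene lists and sequence features were not used, since the gene and promoter tables at hand are of another build. The 4 inputs were not analysed here.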

Additional observations from a re-analysis of the deposited data

Results flagged for a closer look

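Among the 172 groups of 4 libraries examined at the named regions and partners, 8 had 1 library far from the other 3 (gap over range above 0.829); chance gives this in about 1 of 20 groups. For GR, untrained vehicle B held 237.5 CPM at chr9:1710902-1711256, where the other 3 libraries held 97.5 to 114.6 CPM, and 475.0 CPM at chr10:86302228-86302939, where the others held 158.5 to 206.6 CPM. That library was the shallowest GR library, with 55254 reads, and the values rested on 10 and 20 reads. Trained vehicle A held 120.1 CPM of GR at chr9:1710902-1711256 (others 65.4 to 73.5), and untrained vehicle A held 268.2 CPM at chr19:49314127-49314855 (others 166.2 to 182.8).

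For pCREB the distant library was the lowest each time. Trained vehicle D held 16.2 CPM at chr4:71120929-71121446 (others 30.8 to 33.3). Trained vehicle B held 18.9 CPM at chr9:117758471-117758900 (others 32.5 to 34.1) and 14.2 CPM at chr11:79710582-79710944 (others 47.2 to 48.7). Untrained corticosterone D held 25.4 CPM at chr2:216866403-216866768 (others 39.8 to 40.4).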

How the results depend on the processing

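With a limit of 0 or 2 vehicle calls there were 209 or 1486 regions instead of 730; with an overlap of at least 50% of the GR region there were 728. The number called higher for GR under corticosterone, averaged over training, was 1 with 0 vehicle calls, 5 with up to 2, 5 without the 3 libraries with few calls, and 2 to 9 when leaving out 1 library, against 3. In untrained rats it was 1 with up to 2 vehicle calls and 0 to 6 when leaving out 1 library, against 0. In trained rats it was 0 with 0 vehicle calls, 0 at an adjusted p under 0.01 and 0 to 1 when leaving out 1 library, against 1. The cause was not tested, and the shares of all GR regions called under these alternatives are not given. The 9 comparisons of GR by training and of pCREB gave 0 regions under every alternative run. Of 1038 values of single named regions under alternatives, 7 no longer passed, all at chr20:29814118-29814417, and 4 newly passed: chr1:40535845-40536107 at 1.24 without untrained vehicle B and 1.23 without the 3 libraries with few calls, chr11:65855528-65856075 at 1.09 without untrained vehicle D, and chr10:86302228-86302939 at 0.73 without untrained vehicle B. Another 12 changed sign, at 5 regions or partners named for their level, none of which passed in either direction. For GR, chr17:20023305-20024114 was at -0.055 without the 3 libraries with few calls, and chr1:263282957-263283659 ranged from -0.020 to 0.24 when leaving out 1 library, with values below 0 without untrained vehicle B or trained vehicle D. For pCREB, the ranges when leaving out 1 library were -0.10 to 0.15 at chr17:89432863-89433071 (below 0 in 5 cases), -0.27 to 0.045 at chr6:11079384-11080738 (above 0 without trained vehicle B) and -0.13 to 0.039 at chr4:121583924-121584220 (above 0 without untrained corticosterone B or trained vehicle A). Scaling by total count gave 0.050 at the last of these.

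With the letter as a replicate block, 3 regions were called for GR under corticosterone, 0 in untrained and 1 in trained rats, and 0 in the other comparisons. Across conditions, same-letter deviations correlated at -0.19 to 0.49 for GR (11 of 24 pairs above 0.1) and -0.37 to 0.54 for pCREB (14 of 24). The same-letter median was 0.07 for GR, against -0.06 between other letters. For pCREB these medians were 0.12 and -0.07. Of 16 libraries, 5 for GR and 6 for pCREB correlated best with their own letter. Whether letters pair libraries across conditions was not tested. Scaling by total count moved the median log2 fold change of all regions by 0.11 for GR training in vehicle rats and by 0.10 for pCREB under corticosterone in trained rats. Leaving out mitochondrial and unplaced regions moved it by 0.098 for GR under corticosterone in untrained rats. A median of 3 to 17 GR reads per region and library limits which differences could be detected.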
